A study of Mus musculus with 6 samples.

Results

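The cytosolic ribosomal proteins are the proteins that, with the ribosomal RNAs, build the small (40S) and large (60S) subunits of the ribosome. Their mRNAs were examined here in adipose tissue of mice. Members were all rows of the deposited gene table whose symbol begins with Rpl or Rps followed by a number, with Rplp and Rpsa included, and with pseudogene names (-ps) and the Rps6k kinases left out. The rule took 85 of the 19928 genes of the table. Of these, 31 encode 40S proteins, 46 encode 60S proteins, 7 are paralogs of a ribosomal protein (Rpl3l, Rpl7l1, Rpl22l1, Rpl36al, Rpl39l, Rps27l and Rps4y2), and 1 is Rps19bp1, a binding protein of the 40S protein S19 that is not itself part of the ribosome. The rule leaves out ribosome proteins whose symbols differ, and Fau (S30) and Gnb2l1 (Rack1) are described beside the members.

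The study compared adipose tissue from 3 control samples with that from 3 samples of mice given a supplement of RAS, radix Angelica sinensis, a root of traditional medicine. The labels give the supplement as 10.00 g/kg of body weight. All 6 samples came from KM mice, and the study title places the animals on a high-fat diet. Fat depot, age and sex are not in the labels. They also do not say how many animals stand behind a sample, so the p-values below measure the spread between these samples. The unit is FPKM, fragment counts scaled to transcript length and library size, which allows levels of different genes to be set side by side.

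Most vertebrate ribosomal protein mRNAs are short, abundant and stable. They carry a 5′ terminal oligopyrimidine (TOP) motif, a run of C and T that begins at the transcription start and places their translation under the control of mTORC1 and LARP1, and several translation factors share it. Because these mRNAs are abundant, they have also been copied back into the genome many times as intronless processed pseudogenes. Short reads can be assigned to a gene or to a near-identical copy.

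The search for processed copies compared the coding sequence of 84 members with the pseudogenes of the GENCODE M21 annotation (GRCm38). It found 963 pseudogenes with at least 90% identity over at least 80% of a member's coding sequence, and 80 of them have a row of their own in the deposited table. A member had a median of 8.0 such copies. Rpl21 had 76, Rpl7a 74, Rpl29 58, Rpl17 50 and Rps2 47, whereas the search found none for 8 members and 10 or more for 35. Among the 8 was Rps19, for which RefSeq holds 13 pseudogene names of the form Rps19-ps. A single transcript per member was compared, of 639 coding bases for Rps19, so a count of 0 does not show that copies are absent.

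For 4 members whose values are set beside those of a copy below, a stretch of gene and copy is shown to make plain how little separates them. The capital letter is a base that differs between gene and copy, with positions counted from 1 at the A of the gene's start codon. Rpl26 (chr11:68901565-68904534), a 60S protein gene, and its processed copy Gm15772 (chr5:3236431-3236868, plus strand) differed at 2 of 438 coding bases, C177T and T288C. Rps2 (chr17:24720062-24721927), a 40S protein gene, and Gm6139 (chr5:129622990-129623871, minus strand) differed at 10 of 882, among them G22A. Rpl30 (chr15:34440504-34443276), a 60S protein gene, and Gm12191 (chr11:49678710-49679057, minus strand) differed at 1 of 348, G96A. Rpl29 (chr9:106429538-106431567), a 60S protein gene, and Gm8210 (chr1:43189156-43189638, plus strand) differed at 3 of 483, C72A, C300T and T423C. The sequences are GENCODE M21 transcript sequences on GRCm38, 5′ to 3′.
Rpl26: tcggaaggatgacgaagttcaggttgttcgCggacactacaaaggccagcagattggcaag
Gm15772: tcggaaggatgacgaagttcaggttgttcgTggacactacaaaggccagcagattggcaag
Rps2: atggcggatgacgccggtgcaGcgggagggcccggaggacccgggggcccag
Gm6139: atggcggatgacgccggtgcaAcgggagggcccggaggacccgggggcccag
Rpl30: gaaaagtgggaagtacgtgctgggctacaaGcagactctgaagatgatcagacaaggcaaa
Gm12191: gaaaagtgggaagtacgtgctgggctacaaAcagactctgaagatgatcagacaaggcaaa
Rpl29: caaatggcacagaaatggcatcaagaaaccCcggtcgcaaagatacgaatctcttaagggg
Gm8210: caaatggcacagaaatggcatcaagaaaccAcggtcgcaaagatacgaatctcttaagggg
A read that lies within such a stretch without covering the capital letter matches gene and copy equally.

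The start of transcription was examined for the TOP motif because the members moved together between libraries, as described below. Promoter entries of RefSeq (GRCm38.p6) were matched for 63 of the 85 members. Runs of at least 8 C or T on the sense strand were counted where any part lay within 5 bases of the annotated start. They were present in 24 of the 63 members (38.1%), against 11.4% of the 27025 genes with a promoter entry. For each gene the longest run over its entries was taken. A counted run could begin upstream or downstream of the start, so the count is not a count of TOP motifs. The longest run, 21 bases, was at Rpl7a. The start windows of Rps18 (chr17:33955651-33955680) and Rps26 (chr10:128626492-128626521), both on the minus strand, cover the 15 bases before and the 15 from the start. These 40S genes were among the matched members of smallest p in limma, as were Rpl36a and Rpl7l1 below. Capitals mark the run of C and T. Its first base lay at −2 in Rps18 and at 3 in Rps26, relative to the annotated start base.
Rps18: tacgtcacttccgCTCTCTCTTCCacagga
Rps26: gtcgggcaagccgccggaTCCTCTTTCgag
Rpl36a and the paralog Rpl7l1, by contrast, had runs of 3 and 1 bases at their annotated starts. Rpl26 and Rps2, which departed most from the shared profile described below, had runs of 3 and 6 bases. A run of these letters at an annotated start is a description of sequence and was not tied to translation by any measurement here.

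The summed scaled counts of the libraries were 14050142 to 15720783, and 12462 to 12641 genes reached 1 FPKM. Most scaled counts were multiples of a number that ran from 0.911 in control 2 to 1.061 in RAS 2. The sums are therefore not read depth. As a check of the tissue label, the 7 white adipocyte markers summed to 28138 to 36491 FPKM in the controls and 38688 to 55406 in the RAS samples. That sum is led by Fabp4, a lipid carrier, and 4 of the 7 markers were higher with RAS and 3 lower, among them Lep (leptin) and Plin1. Other cell types differed between libraries. Liver markers summed to 158.5 FPKM in control 3 against 9.69 to 26.0 elsewhere. Brown or beige adipocyte markers summed to 617 FPKM in RAS 3 against 28.7 to 178 elsewhere. Skeletal muscle markers summed to 69.1 to 202 FPKM in the controls and 22.3 to 60.7 with RAS, without overlap, with Myh4 at 0 in some libraries. Erythroid markers summed to 670 to 1255 FPKM in the controls and 1142 to 2772 with RAS, highest in RAS 3, and all 5 were higher with RAS. Bulk tissue cannot tell a change in the number of cells of a type from a change in RNA per cell.

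The members ranked among the most abundant mRNAs of the tissue. Of the 85, 83 reached the minimum mean of 1 FPKM over the 6 libraries and were tested, and 74 of these had a mean above 100 FPKM. The median of the 83 means was 425 FPKM. Rps12, a 40S protein, was highest at 1439, 1431 and 1939 FPKM in controls 1 to 3 and 1636, 1449 and 2249 FPKM in RAS 1 to 3. The 60S protein Rpl41, the smallest protein of the ribosome, followed with 1018 to 1482 FPKM in the controls and 1192 to 1886 in the RAS samples. The 40S protein Rps27 ranged over 857 to 1534 and 1204 to 1968 FPKM, and the acidic stalk protein Rplp2 over 1025 to 1534 and 1091 to 1983. In each of these 4 genes the groups overlapped and RAS 3 was the highest library. At the other end lay Rpl29 with a mean of 5.14 FPKM, and below the minimum lay the paralogs Rpl39l (mean 0.0682 FPKM) and Rpl3l (mean 0.118 FPKM), whose known main sites are testis and muscle.

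Together the members took 7.24%, 8.39% and 10.2% of all FPKM in controls 1 to 3 and 8.12%, 8.08% and 10.3% in RAS 1 to 3. Control 3 and RAS 3 thus held the largest shares. The group means, 8.61% ± 1.498 and 8.85% ± 1.30 (SD, n = 3 each), differed by 0.233 percentage points, less than the spread between libraries. Of the summed scaled counts, which are not divided by gene length, the members took 1.88% ± 0.305 and 1.93% ± 0.458 (SD, n = 3 each).

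No ribosomal protein gene differed between RAS and control mice at an adjusted p of 0.05 (limma on log2(FPKM + 1), Benjamini-Hochberg over 12606 genes). The count was 0 of 83 members, beside 0 of 12606 genes (0.00%) in the same test. At an unadjusted p under 0.05 there were 2 of 83 members, Rpl29 and Rps18, both higher with RAS, beside 10.3% of all genes tested. The smallest adjusted p of any member was 0.263, for Rpl29. 

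The estimated differences of the members were small and mostly on one side of 0. On the log2(FPKM + 1) scale, which understates changes of low genes, 73 of the 83 were higher with RAS and 10 lower, beside 43.0% of all genes higher, but only 25 were higher after quantile normalization, 25 with sample weights and 42 on the scaled counts. The median difference of the members was 0.12, and that of all genes tested −0.04. In 64 of the 83 the difference was smaller than its own standard error, and in 72 it lay within 0.3 of 0. The standard errors ran from 0.12 to 0.92 with a median of 0.22. Of the 40S proteins 30 of 31 were on the higher side with a median of 0.14, and of the 60S proteins 40 of 46 with a median of 0.12. Both medians turned negative after quantile normalization, at −0.02 for 40S and −0.04 for 60S. Ribosome proteins outside the naming rule lay close by, at 0.18 for Fau and 0.09 for Gnb2l1.

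The sign of the median depended on RAS 3 as well as on the scaling and weights. Without RAS 3 the median of the members was −0.05 and 25 of 83 were higher with RAS. Without control 1 and RAS 3 together it was −0.12 and 16 of 83 were higher. Without control 3, in turn, it was 0.25 and 78 were higher. No member passed the test in any of these fits.

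**Figure D1:**
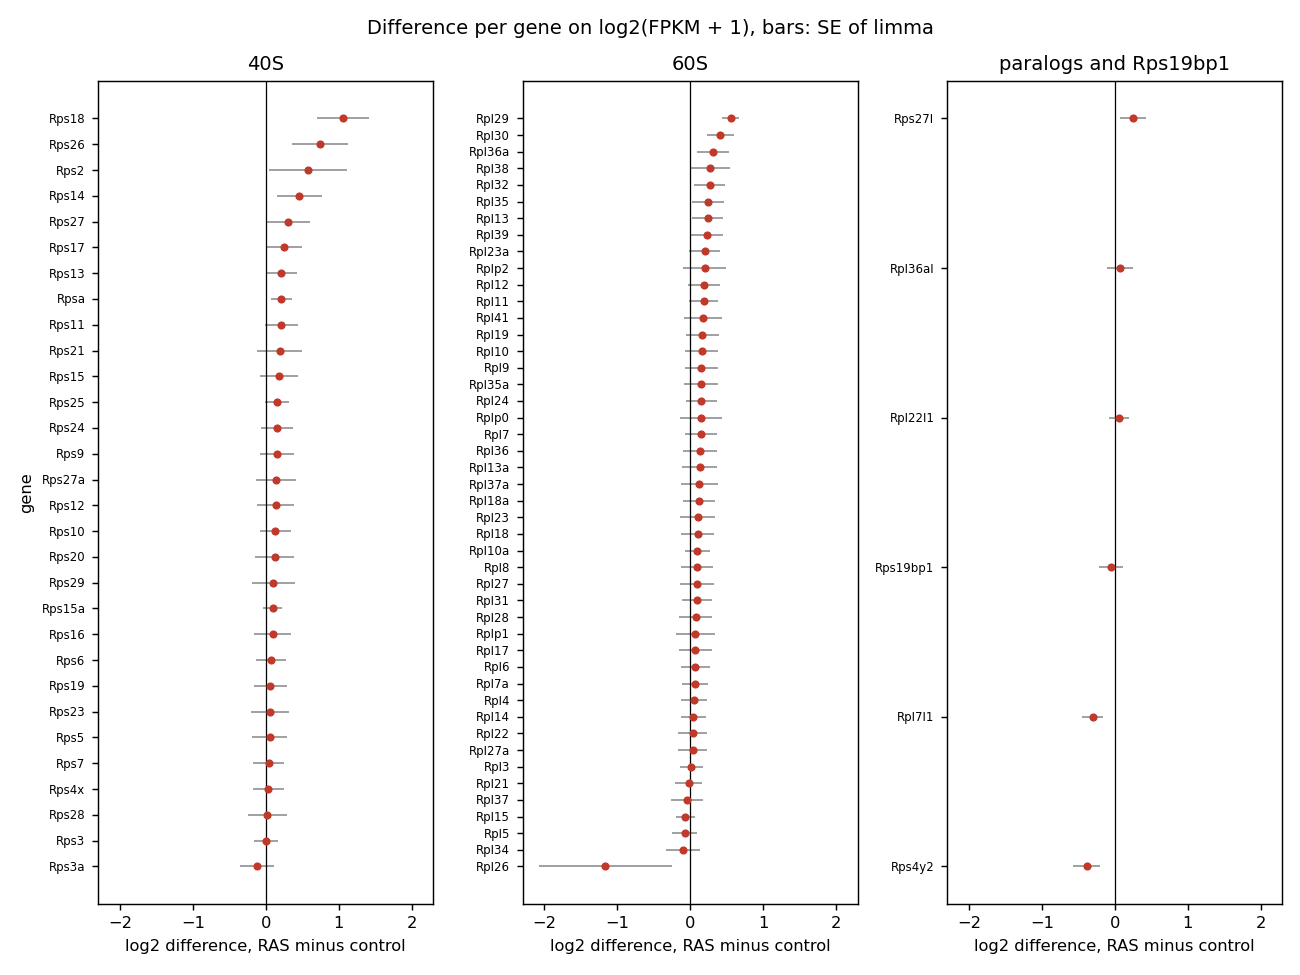
Difference between RAS and control on the log2(FPKM + 1) scale (horizontal axis) for tested genes (vertical axis), with bars for the standard error of limma, for 40S proteins, 60S proteins, and paralogs with Rps19bp1. Most points lie slightly above 0 with bars that cross it, an excess that quantile normalization turns round, and Rpl26, Rps2 and Rps26 have the widest bars.

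The larger variation lay between libraries rather than between the RAS and control groups. Each gene's log2 FPKM was centred on its own mean over the 6 libraries. The median centred value of the 83 members was −0.18, −0.18 and 0.19 in controls 1 to 3 and −0.09, −0.17 and 0.42 in RAS 1 to 3. RAS 3 was the highest library for 70 of the 83 members and control 3 for 8. Control 1 was the lowest for 34, RAS 2 for 23 and control 2 for 22. Control 3 and RAS 3 were both above the other 4 libraries in 70 of 83 members (84.3%), beside 11.9% of all genes tested.

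The members kept close to that shared profile. The correlation of a member with the median of the other members over the 6 libraries had a median of 0.949 and was over 0.9 in 55 of the 83, a description of 6 points that share a library and its scaling. After subtraction of the shared profile, the largest remaining deviation stayed within 0.25 log2 units in 60 members. The 40S protein Rps6, whose phosphorylation by S6 kinase is a common readout of mTORC1, is typical. It measured 205, 213 and 265 FPKM in controls 1 to 3 and 220, 204 and 301 in RAS 1 to 3, with overlapping groups and a difference of 0.07 ± 0.20 (SE). The stalk proteins, which recruit translation factors, behaved in the same way. Rplp0 measured 403, 351 and 586 FPKM in the controls and 413, 397 and 684 with RAS. Rplp1 measured 1136, 1035 and 1587 FPKM in the controls and 1160, 1108 and 1684 with RAS. In both genes control 3 and RAS 3 stood above the other 4 libraries.

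Further 60S and 40S proteins were likewise highest in RAS 3. Rpl10, which joins the 60S subunit late and is needed for subunit joining, measured 610, 656 and 873 FPKM in the controls and 697, 714 and 978 with RAS. Rpl32 measured 758, 770 and 875 FPKM in the controls and 919, 802 and 1214 with RAS. Rps27a, made as a fusion of ubiquitin and S27a, measured 194, 205 and 310 FPKM in the controls and 224, 208 and 357 with RAS. Control 3 was the next highest library in Rpl10 and Rps27a but lay below RAS 1 in Rpl32, and the groups overlapped in all 3. Their differences were 0.16, 0.27 and 0.14 on the log2 scale, with standard errors of 0.23, 0.21 and 0.27, and Rpl10 fell on the lower side after quantile normalization and Rps27a on the lower side on the scaled counts.

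**Figure D2:**
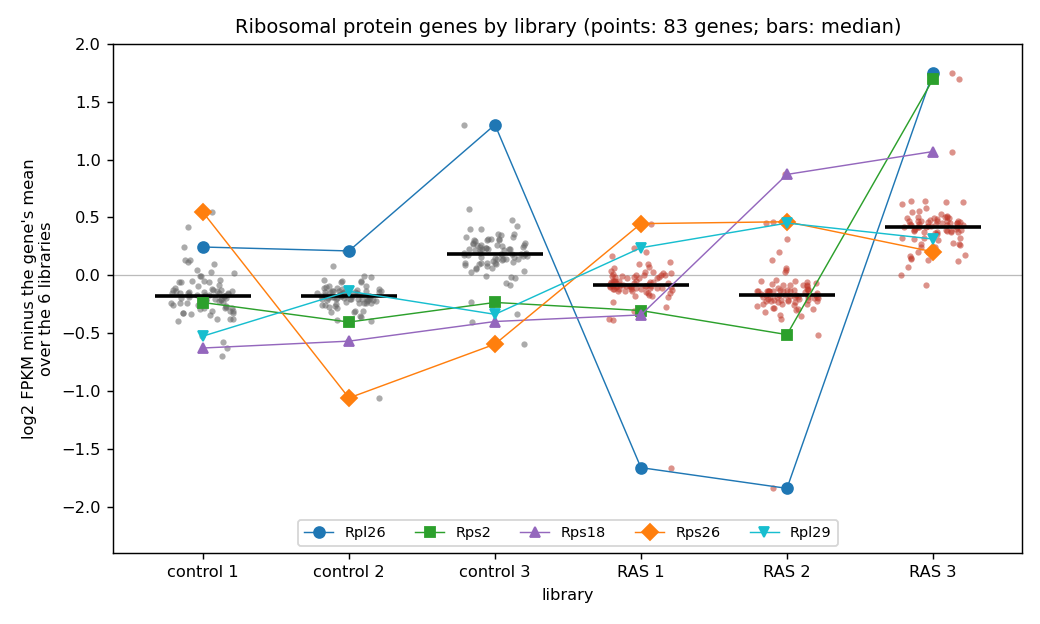
Centred log2 FPKM (vertical axis) of the 83 tested members in each library (horizontal axis), grey for control and red for RAS, with a black bar at the median and coloured lines for 5 members that departed from it. The medians of control 3 (0.19) and RAS 3 (0.42) stand above those of the other 4 libraries, which lie between −0.18 and −0.09, and Rpl26 falls far below them in RAS 1 and RAS 2.

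Markers of other cell types were set beside this profile. The 5 B and plasma cell markers summed to 16.6, 26.4 and 69.4 FPKM in controls 1 to 3 and 14.6, 16.1 and 55.7 in RAS 1 to 3, which is also highest in control 3 and RAS 3. The immunoglobulin J chain gene Igj led the list, at 9.88, 12.8 and 59.2 FPKM in the controls and 6.54, 8.48 and 43.6 with RAS, and the other 4 markers of the list did not show that order. None of the 5 was at 0 in any library. The part of these cells in the ribosomal protein profile was not tested, nor that of the liver, brown fat, muscle and erythroid signals.

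Other gene groups linked to the ribosome were described in the same way. Of 20 translation factors and other TOP mRNAs, 18 were higher with RAS and 2 lower, beside 43.0% of all genes higher. The median of these 20 was 0.12, and 0 passed the test. With scaling by quantiles 12 were higher and the median was 0.04. Without RAS 3 the median was 0.01, with 12 higher and 8 lower. Their median centred value was also highest in RAS 3 (0.22) and next highest in control 3 (0.10). The elongation factor Eef2, which moves the ribosome along the mRNA, had 439, 436 and 513 FPKM in the controls and 516, 520 and 530 with RAS. The groups did not overlap, the only such case among the 20, beside 5.42% of all genes tested with RAS above. The Eef2 difference was 0.18 ± 0.16 (SE), adjusted p = 0.724 in limma. Eif4b and Eif4a2, which help unwind mRNA 5′ ends, differed by 0.21 and 0.22, with overlapping groups and adjusted p of 0.662 and 0.698 in limma.

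The mitochondrial ribosomal proteins, which build the separate ribosome of the mitochondrion, had another order of libraries. Of 76 tested, 57 were higher and 19 lower, with a median of 0.08, beside 43.0% of all genes higher. The median was −0.03 without RAS 3 and −0.01 without control 2. Their median centred value was 0.18 in control 1, where the cytosolic members were low, and −0.08 in control 3, where those were high. RAS 3 was the highest library for both groups (0.25 and 0.42). The difference between the 2 groups of genes was not tested.

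The regulators of ribosomal protein mRNA translation and transcription did not share the profile. Of 20 tested, 8 were higher and 12 lower, beside 43.0% of all genes higher, and 0 passed the test. Their median was −0.08, which became 0.03 without control 1 and RAS 3. In 4 of the 20 every RAS sample lay below every control, beside 12.5% of all genes tested. Myc, a transcription factor that drives ribosome production, measured 8.96, 10.3 and 10.8 FPKM in the controls and 6.10, 6.39 and 7.77 with RAS, so that the groups did not overlap. Its difference was −0.51 ± 0.13 (SE), adjusted p = 0.285 in limma. Rps6ka3, which encodes the ribosomal S6 kinase RSK2, measured 61.5, 45.8 and 35.8 FPKM in the controls and 32.6, 27.97 and 14.6 with RAS, adjusted p = 0.405 in limma. Larp1, the protein that binds TOP mRNAs when mTORC1 is inactive, measured 20.1, 18.3 and 18.4 FPKM in the controls and 17.6, 16.9 and 14.8 with RAS, adjusted p = 0.590 in limma, and was singled out after its values were seen. Zfp148, a zinc finger transcription factor, differed by −0.19 with groups that did not overlap. Mtor itself measured 8.11 to 9.94 FPKM in the controls and 7.94 to 11.7 with RAS, with RAS 3 lowest.

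The RNAs that host small nucleolar RNAs in their introns, several of which also carry a TOP motif, went different ways. Of 7 tested, 3 were higher and 4 lower, beside 43.0% of all genes higher, and 0 passed the test. In 1 of the 7 every RAS sample lay above every control, beside 5.42% of all genes tested. In 2 every RAS sample lay below, beside 12.5%. Gas5 measured 9.60, 9.13 and 9.78 FPKM in the controls and 6.97, 6.18 and 5.64 with RAS. The groups did not overlap, and the difference was −0.54 ± 0.11 (SE), adjusted p = 0.240 in limma. Snhg3 measured 17.6, 17.3 and 17.5 FPKM in the controls and 27.4, 18.3 and 25.2 with RAS, on the higher side without overlap. Its difference was 0.39 ± 0.16 (SE), adjusted p = 0.462 in limma. Snhg12 overlapped between groups with a difference of 0.49.

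**Figure D3:**
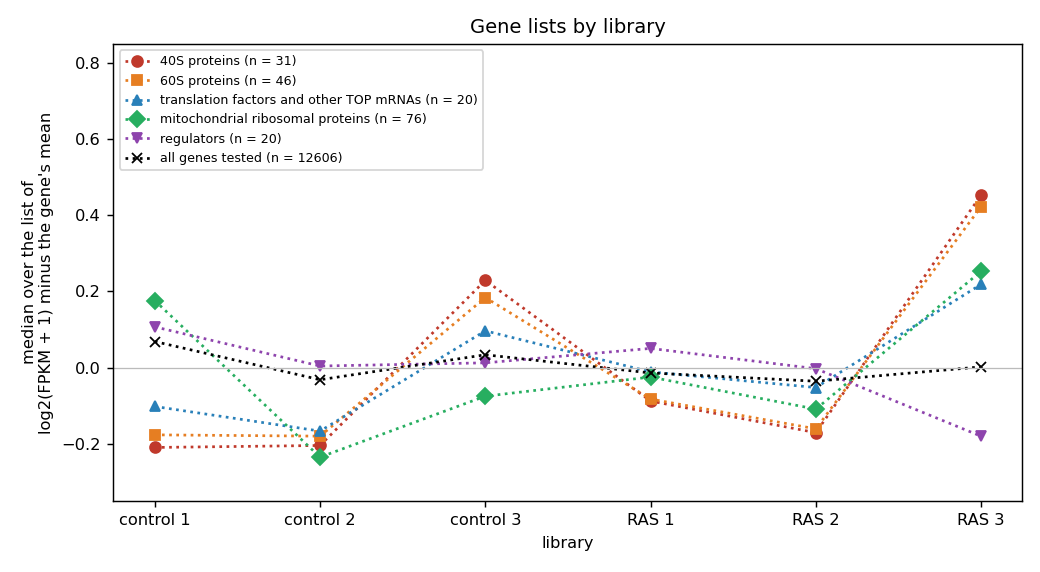
Median over each gene list of the centred log2(FPKM + 1) (vertical axis) in the 6 libraries (horizontal axis), for 40S proteins, 60S proteins, translation factors and other TOP mRNAs, mitochondrial ribosomal proteins, regulators and all genes tested. The 40S and 60S proteins and the TOP mRNAs are highest in RAS 3 and next in control 3, whereas the mitochondrial ribosomal proteins are next highest in control 1.

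Against this shared profile 8 members departed by more than 0.5 log2 units in at least 1 library. They were Rpl26 (1.67, in RAS 2), Rps2 (1.27, in RAS 3), Rps18 (1.04, in RAS 2), Rps26 (0.88, in control 2), Rpl29 (0.62, in RAS 2), Rpl7l1 (0.60, in control 1), Rps14 (0.52, in control 1) and Rpl21 (0.50, in RAS 3). Rps2, Rpl21 and, below, Rps15a were singled out after their values were seen.

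Rpl26 had the lowest estimate of all members. It measured 446, 436 and 929 FPKM in controls 1 to 3 and 119, 105 and 1267 FPKM in RAS 1 to 3. RAS 1 and RAS 2 were the lowest libraries and RAS 3 the highest, so the groups overlapped. The difference was −1.16 ± 0.92 (SE), adjusted p = 0.691 in limma. The row of its copy Gm15772 ran the other way, with 334, 324 and 8.16 FPKM in the controls and 767, 709 and 9.19 FPKM with RAS. The row of the copy was high where that of the gene was low. Gene and copies together gave 781, 761 and 938 FPKM in the controls and 887, 815 and 1278 with RAS. The sum had the order of the other members, lay within 0.12 log2 units of the shared profile in every library, and differed between groups by 0.24 in place of −1.16.

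Rps2, a 40S protein at the mRNA entry site, showed a second such pair. It measured 221, 197 and 221 FPKM in the controls and 211, 183 and 843 with RAS, so that RAS 3 alone stood apart. Gm6139 measured 132, 108 and 132 FPKM in the controls and 119, 102 and 15.1 with RAS, lowest in that same library. The sum over gene and the 4 copies with a row was 386, 335 and 383 FPKM in the controls and 358, 309 and 891 with RAS. RAS 3 therefore stayed far above the rest in the sum as well, and the difference went from 0.58 ± 0.54 (SE, adjusted p = 0.733 in limma) for the gene to 0.33 for the sum. Only these 4 of the 47 copies of Rps2 have a row in the table.

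Rpl30 and Rpl29 were among the 3 members, with Rps18, in which every RAS sample was above every control. These are 3 of 83 members, beside 5.42% of all genes tested with RAS above and 12.5% with RAS below, and no member had all RAS samples below. Rpl30 measured 437, 448 and 532 FPKM in the controls and 542, 623 and 726 with RAS, a difference of 0.41 ± 0.18 (SE), adjusted p = 0.501 in limma. Its copy Gm12191 measured 113, 106 and 134 FPKM in the controls and 112, 0.22 and 160 with RAS. In RAS 2, where Rpl30 departed most from the shared profile (0.37), the copy was near 0. The sum, 550, 554 and 666 FPKM in the controls and 655, 624 and 886 with RAS, overlapped between groups and differed by 0.28.

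Rpl29, a 60S protein with very many copies, was listed at 3.46, 4.53 and 3.94 FPKM in the controls and 5.88, 6.82 and 6.20 with RAS. The groups did not overlap, and the difference was 0.56 ± 0.12 (SE), unadjusted p = 0.00219 and adjusted p = 0.263 in limma. The row of its copy Gm8210 held 267, 262 and 292 FPKM in the controls and 248, 257 and 387 with RAS, which overlapped. Copies held 97.4% to 98.7% of the summed value in every library. The sum differed by 0.10 and lay within 0.14 log2 units of the shared profile.

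**Figure D4:**
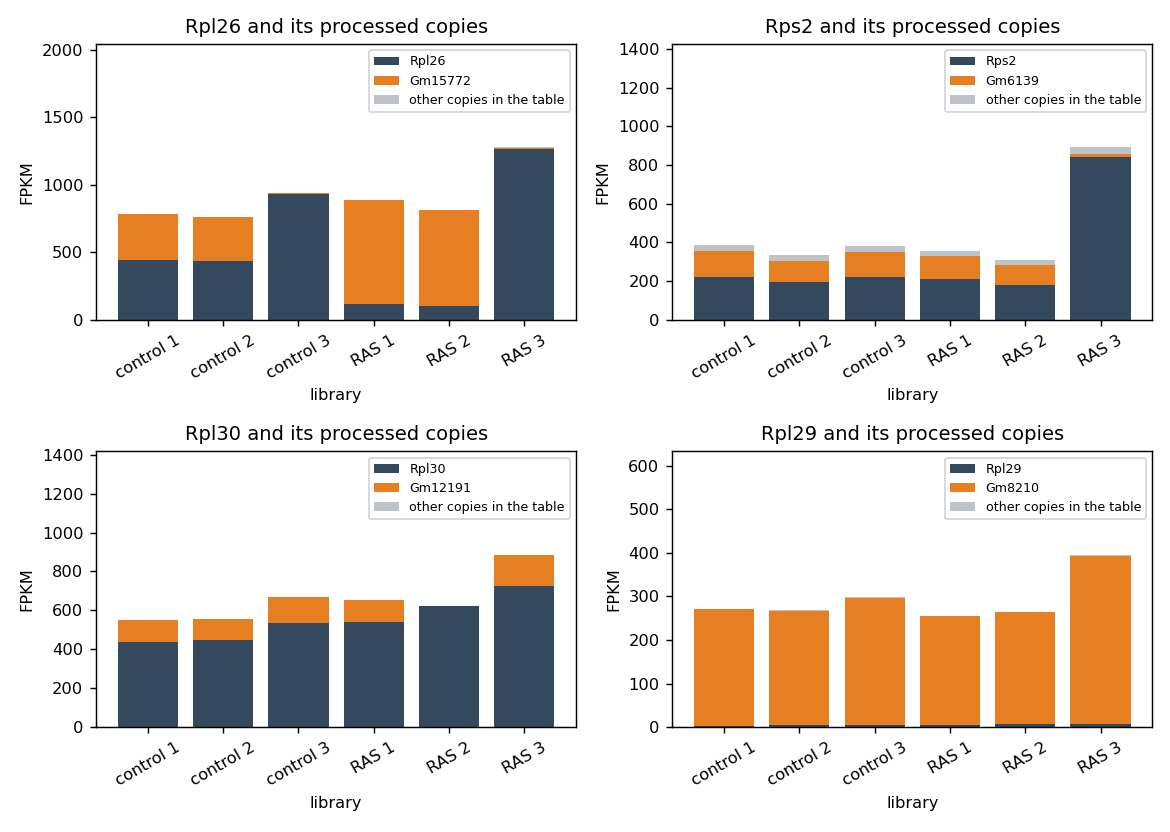
FPKM (vertical axis) in the 6 libraries (horizontal axis) of Rpl26, Rps2, Rpl30 and Rpl29 (dark), of the closest copy with a row in the table (orange) and of all other copies with a row (grey), stacked. Gm15772 is tall where Rpl26 is short, Gm12191 vanishes in RAS 2, and nearly all of the Rpl29 sum is in Gm8210.

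Copies also held most of the summed value of Rpl34 and Rpl21, and the sign of the difference changed in both sums. For Rpl34, a 60S protein, the copy Rpl34-ps1 held 487 to 707 FPKM in the controls and 627 to 885 with RAS, against 138 to 219 and 131 to 195 FPKM for the gene. The difference was −0.10 for the gene and 0.24 for the sum. Rpl21, a 60S protein, measured 35.2 to 49.0 FPKM in the controls and 33.3 to 50.2 with RAS, while its 8 copies with a row held 73.7% to 92.0% of the sum. The sum differed by 0.11, the gene by −0.02, and the sum in RAS 2 (191 FPKM) was the lowest of the 6 libraries.

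For Rps18 no copy with a row was found. This 40S protein of the subunit's head, whose gene lies on chromosome 17 and has 11 copies at the identity used, measured 184, 192 and 216 FPKM in the controls and 224, 521 and 597 with RAS. The lowest RAS sample was just above the highest control, and RAS 2 and RAS 3 were high. The difference was 1.06 ± 0.36 (SE), the highest of all members, with unadjusted p = 0.0196 and adjusted p = 0.405 in limma. Whether copies without a row took reads of Rps18 was not tested.

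Rps26, a 40S protein at the mRNA exit site, measured 564, 185 and 256 FPKM in the controls and 527, 533 and 445 with RAS. Control 2 and control 3 were low and control 1 was the highest library, so the groups overlapped. The difference was 0.74 ± 0.38 (SE), adjusted p = 0.557 in limma. Its copy Gm6654 held 0.75 to 3.00 FPKM, so that the sum showed the same departure. Rps14, a 40S protein of the platform, measured 575, 751 and 1154 FPKM in the controls and 951, 948 and 1441 with RAS, with control 1 lowest. Its difference was 0.46 ± 0.31 (SE). Rpl36a, a 60S protein encoded on the X chromosome, measured 387, 441 and 557 FPKM in the controls and 546, 482 and 703 with RAS. Its difference was 0.32 ± 0.22 (SE), and Rpsa, the 40S protein also known as laminin receptor, followed at 0.21 ± 0.15 (SE). Groups overlapped in Rps14, Rpl36a and Rpsa.

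**Figure D5:**
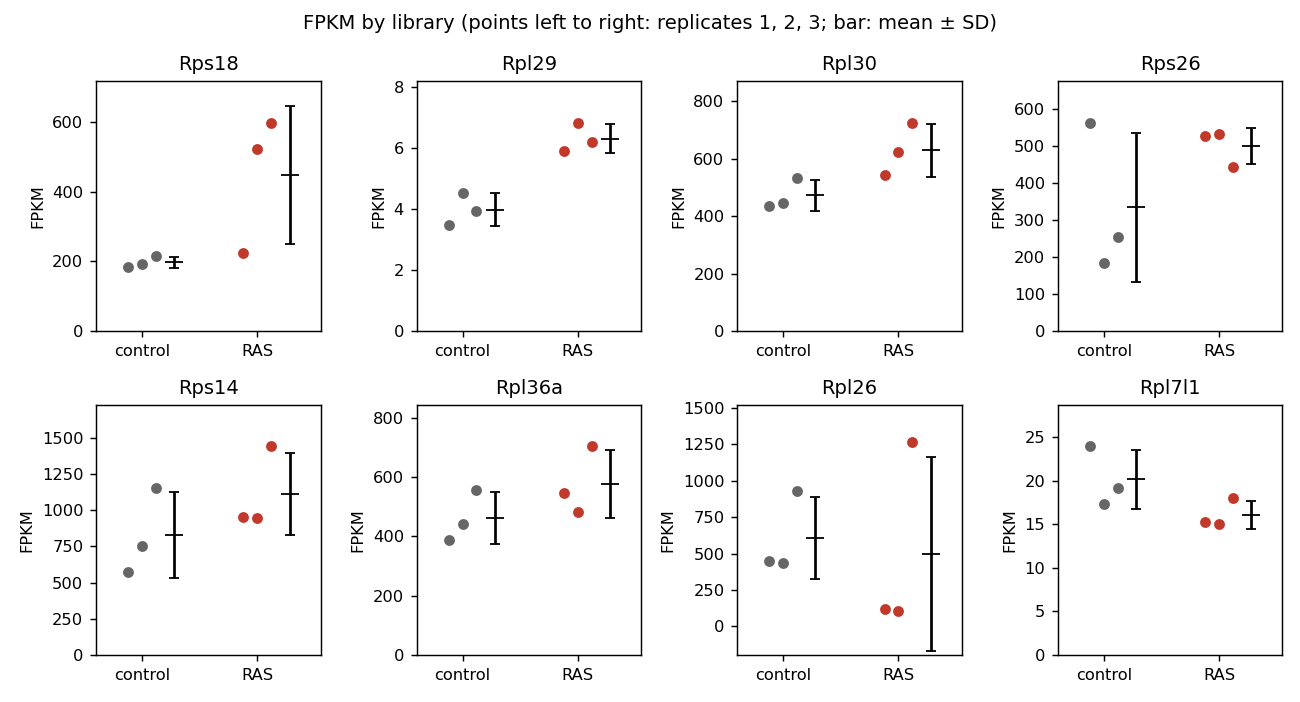
FPKM (vertical axis) of 8 genes in control and RAS samples, with points for replicates 1 to 3 from left to right and a bar for mean ± SD. Rps18, Rpl29 and Rpl30 have every RAS sample above every control, while Rps26 and Rpl26 have their widest spread within 1 group.

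On the lower side, the estimates of the 40S and 60S proteins other than Rpl26 were within their standard errors of 0, and the paralogs Rps4y2 and Rpl7l1, given below, lay further from 0. Rps3a, a 40S protein, measured 434, 472 and 644 FPKM in the controls and 376, 474 and 578 with RAS, a difference of −0.12 ± 0.23 (SE). Rpl5, the 60S protein that carries 5S ribosomal RNA and binds Mdm2, measured 150, 161 and 189 FPKM in the controls and 143, 142 and 191 with RAS, a difference of −0.08 ± 0.18 (SE). Rpl15, a 60S protein, measured 85.8, 80.5 and 89.8 FPKM in the controls and 77.4, 76.0 and 91.0 with RAS, a difference of −0.07 ± 0.13 (SE). The groups of these 3 genes overlapped. Rps19bp1 differed by −0.05 ± 0.16 (SE) at 11.4 to 17.5 FPKM.

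The paralogs, which can replace or accompany their parent protein in some tissues, all had mean levels under the median of the members. By FPKM Rpl22l1 lay above its parent, with a ratio to Rpl22 of 1.40 ± 0.31 in the controls and 1.41 ± 0.24 with RAS (SD, n = 3 each). The scaled counts had the reverse order, at 307 to 374 for Rpl22l1 and 1670 to 2697 for Rpl22 over the 6 libraries. Mean FPKM per scaled count was 0.2365 for Rpl22l1 and 0.0278 for Rpl22. The cause was not tested, so which of the 2 is more abundant is not settled here. Rpl22l1 measured 69.5 to 87.4 and 75.0 to 88.0 FPKM. Rps27l, described as a p53 target, stood at 0.155 ± 0.0495 and 0.145 ± 0.0269 of Rps27 (SD, n = 3 each), with an estimate of 0.25 ± 0.18 (SE) between groups. Rpl36al stood at 0.541 ± 0.104 and 0.451 ± 0.0038 of Rpl36a (SD, n = 3 each), and the highest ratio, 0.658, was that of control 1. In these 3 pairs the group means of the ratio differed by less than the SD of the controls. The Rpl36al ratio was nonetheless lower in every RAS sample (0.447 to 0.454) than in any control (0.459 to 0.658), and was not tested.

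Rpl7l1, a paralog that acts in ribosome assembly, measured 23.9, 17.4 and 19.2 FPKM in the controls and 15.2, 15.1 and 17.9 with RAS. The groups overlapped, and the difference was −0.30 ± 0.15 (SE), adjusted p = 0.534 in limma. Its FPKM ratio to Rpl7 was 0.0468, 0.0335 and 0.0294 in the controls and 0.0282, 0.0278 and 0.0226 with RAS, lower in every RAS sample than in any control, and was not tested. Rps4y2 measured 8.89, 8.21 and 12.3 FPKM in the controls and 6.36, 6.397 and 9.04 with RAS, a difference of −0.38 ± 0.19 (SE), adjusted p = 0.534 in limma, and its listed locus also holds 3 other genes of the table. In all, 15 of the 85 members share their listed locus with another gene.

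Rps15a, a 40S protein, had a low listed level. It was listed at 17.6 to 19.8 FPKM in the controls and 17.7 to 23.3 with RAS. Its mean FPKM per scaled count was 0.0106, the lowest of the 85 members, against 0.1002 for Rpl10, and the cause was not tested. The difference between groups was 0.10 ± 0.13 (SE).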

How the data were processed

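RNA from 6 adipose samples (3 control, 3 RAS) was sequenced after poly(A) selection on an Illumina HiSeq 2500, per the labels' protocols. The submitters' processing notes name TopHat2 2.0.9 and Cufflinks 2.1.1; the genome build is not given in the sources used here. All 84 member loci compared overlapped the gene of the same identifier in GENCODE M21 (GRCm38). The deposited table holds FPKM per gene and a second column per sample, used as deposited as a scaled count signal, because its values are mostly whole multiples of 1 number per library but include fractions, so no count model was fitted. Columns of RAS samples were identified by the treatment protocol and those of controls as the remaining numbered set (4 further columns, 1 value per group each, were left aside).

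The 12606 genes whose FPKM averaged 1 or more were compared on log2(FPKM + 1) with limma 3.58.1 in R 4.3.3 (trend, two-sided, Benjamini-Hochberg, threshold 0.05, all 6 samples, no covariate), and the fit was tested on simulated data, where it called 63.6% of log2 changes of 1 and 91.4% of changes of 2 in 200 of 12606 genes, with 9.2 unchanged genes called per run. The total scaled count, 14050142 to 15720783 per sample, stood in for the depth, which it does not measure directly because it is scaled. Other steps used pandas 2.3.3 and numpy 2.4.6 in Python 3.11.15, with matplotlib 3.10.9 for figures, and copies were found with BLAST+ blastn 2.17.0. Named genes were the 8 members of smallest p on each side, the 4 highest in FPKM, fixed members (Rpsa, Rplp0, Rplp1, Rplp2, Rps6, Rps27a, Rpl10, Rpl32), all paralogs and other names the rule takes, members under the minimum, ribosome proteins outside the rule and up to 3 genes of each other list by p. Protein sequences were not used here, and values of 2 genes are not reported here. The members and lists were chosen with earlier results of these data known. Alternatives covered the pseudocount, minimum level, scaling, variance model, sample weights, replicate block, left-out samples, scaled counts, and copies; 2 of those on copies (members with 10 or more copies left out, and each member summed with its copies) were chosen after seeing the data.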

Additional observations from a re-analysis of the deposited data

How the results depend on the processing

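No member passed the adjusted threshold in any of the 16 alternative fits, and the smallest adjusted p of a member in any of them was 0.127 (limma). All genes past the threshold numbered 0 in the full comparison, 0 to 2 when 1 replicate was left out (2 without control 1, 1 without RAS 1 and 1 without RAS 2), and 3 without control 1 and RAS 3 together. For some members with close copies the difference also depended on whether the rows of the copies were added. How reads were assigned was not tested. Across the fits, the direction of the members' small median was the result that changed. The count of higher members, 73, became 25 with quantile normalization, 25 with sample weights, 42 on scaled counts, 25 to 78 with 1 replicate left out, and 16 without control 1 and RAS 3. The median of 0.12 became −0.0384, −0.0559 and 0.0004 under the first 3, ran from −0.0484 to 0.2536 with 1 replicate left out, and was −0.1246 without both libraries. Relative to all genes (0.16) it became −0.0280, −0.0187 and 0.0802, ran from −0.0022 to 0.2845, and was −0.0965. The 40S median was −0.017 with quantile normalization, −0.055 with sample weights, −0.084 to 0.27 with 1 replicate left out and −0.13 without both. The 60S median was −0.044 with quantile normalization, −0.056 with sample weights, −0.046 to 0.25 with 1 replicate left out and −0.11 without both. 

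Among the 42 named genes, 21 kept their direction in every alternative and 21 did not; 620 of 685 values kept it. The cause was not tested. With median-ratio size factors, the log2 difference of Rpl21 changed sign to 0.019. With the member summed with its copies, the log2 differences that changed sign were Rpl26 0.24, Rpl34 0.24, Rpl21 0.11. With quantile normalization, the log2 differences that changed sign were Rplp0 −0.017, Rplp1 −0.13, Rps6 −0.072, Rpl10 −0.053, Rpl22l1 −0.0005, Rpl36al −0.080, Fau −0.0066, Gnb2l1 −0.072. With sample weights, the log2 differences that changed sign were Rps12 −0.041, Rplp2 −0.053, Rplp0 −0.099, Rplp1 −0.13, Rps6 −0.093, Rps27a −0.12, Rpl10 −0.033, Rpl36al −0.0064, Fau −0.040, Gnb2l1 −0.088. With scaled counts in place of FPKM, the log2 differences that changed sign were Rps12 −0.017, Rpl41 −0.033, Rplp1 −0.080, Rps27a −0.013, Rpl22l1 −0.080, Rpl36al −0.065 With control 1 and RAS 3 left out together, the log2 differences that changed sign were Rps12 −0.11, Rps27 −0.13, Rplp2 −0.14, Rplp0 −0.16, Rplp1 −0.18, Rps6 −0.17, Rps27a −0.22, Rpl10 −0.10, Rpl36al −0.039, Fau −0.11, Gnb2l1 −0.15, Rps2 −0.089, Rps15a −0.052. With 1 replicate left out, the genes whose sign changed ranged as follows: Rps3a −0.27 to 0.050, Rpl5 −0.22 to 0.017, Rpl34 −0.27 to 0.11, Rps19bp1 −0.19 to 0.10, Rps12 −0.043 to 0.28, Rpl41 −0.032 to 0.30, Rplp2 −0.071 to 0.38, Rplp0 −0.11 to 0.36, Rplp1 −0.12 to 0.25, Rps6 −0.096 to 0.19, Rps27a −0.098 to 0.36, Rpl22l1 −0.028 to 0.14, Rpl36al −0.070 to 0.19, Fau −0.045 to 0.36, Gnb2l1 −0.086 to 0.21, Rps2 −0.12 to 0.98, Rpl21 −0.18 to 0.11, Rps15a −0.011 to 0.18.

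The members' share of all FPKM, 0.233 percentage points higher with RAS, ranged from −0.516 to 1.03 with 1 replicate left out and was −1.20 without control 1 and RAS 3 together. Their share of scaled counts, 0.0504 points higher, ranged from −0.214 to 0.215 and was −0.350 without both libraries. Over the 8 members for which the search found no copy, the differences were 0.0041 points of FPKM and −0.0009 points of scaled counts. These cover 8 members in place of 85, so their sizes are not comparable with the values above.

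The titles number the samples 1 to 3 in each group. Same-numbered samples deviated together with correlations of 0.178, 0.096 and 0.219 across genes, not all over 0.1, so the numbers were not taken as pairs, although every sample correlated best with its own number. With the replicate block in the fit, 0 members passed the threshold, 73 were higher, 5 against 2 members and 1663 against 1294 of all genes had an unadjusted p under 0.05 (limma), and the median stayed at 0.1215. A count model on recovered reads was not run because the scaled counts hold fractional values.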
